A study of Mus musculus with 21 samples.

Results

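The 10 genes described here encode factors that make, process and degrade the replication-dependent histone mRNAs: Slbp, Npat, Lsm10, Lsm11, Casp8ap2, Zfp473, Eri1, Ncbp1, Cpsf3 and Sympk. They were chosen by name for their roles in this pathway, with earlier results of these data known. Each symbol was matched to the Ensembl gene in the deposited count tables, which list 51467 genes once the spike-in entries are removed. All 10 were among the 14518 genes that passed the filter on low counts. The study compared wild-type mouse embryonic stem cells (ESCs, V6.5 line) with Ddx6 KO ESCs, grown in medium with serum, LIF and the 2i inhibitors. DDX6 is an RNA helicase that has been tied to the repression of translation and to the decapping and deadenylation of mRNA. The Ddx6 KO cells were 2 CRISPR-Cas9 clones of the same parental line. Labelling with 500 µM 4-thiouridine (4sU) for 30 min marked newly made RNA. The labelled fraction (4sU, called nascent RNA here), pulled down after biotinylation, and the total RNA of each culture were sequenced. The methods of the study name depletion of rRNA for total RNA. There were 3 wild-type cultures and 4 Ddx6 KO cultures, 2 of each clone, which gave 14 libraries.

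Replication-dependent histone mRNAs are the metazoan mRNAs that end without a poly(A) tail. Their genes cluster at histone locus bodies, where NPAT (nuclear protein, ataxia-telangiectasia locus) and CASP8AP2 (also called FLASH) gather. The primary transcript ends are cut next to a conserved stem-loop that SLBP (stem-loop binding protein) holds, with the help of the U7 snRNP. That particle carries LSM10 and LSM11 in place of the usual SmD1 and SmD2 proteins, and ZFP473 (ZNF473 in human) binds to it. The cut is made by CPSF3 (CPSF73), the endonuclease that also cuts polyadenylated pre-mRNAs, together with the scaffold protein SYMPK (symplekin). NCBP1 is the large subunit of the nuclear cap-binding complex, and ERI1 is an exonuclease that trims the stem-loop end and takes part in the decay of histone mRNA when DNA replication stops.

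The stem-loop is shown first because it is the sequence that SLBP and ERI1 bind. A search of the annotated transcripts of 65 protein-coding histone genes of the Hist1 to Hist4 clusters found it in 42, in 8 forms. The search asked for a set pattern and for at least 5 annotated bases on either side, so it may have missed stem-loops in the other genes. In all 8 forms, the 6 bases on either side of the 4-base loop pair completely, which the search largely set. Its pattern fixed some pairs of the stem and allowed only C or T opposite A or G at the others. The most common form, present in 23 genes, is shown in Hist1h1c (GRCm38, chr13:23739507-23739532, plus strand). The next forms are shown in Hist1h4d (chr13:23581945-23581970, plus strand), Hist1h2bb (chr13:23747198-23747223, plus strand) and Hist1h4b (chr13:23757361-23757386, plus strand), and were found in 6, 6 and 2 genes. Each is written as DNA, 5′ to 3′, with the 16 bases of the stem-loop in capitals and 5 bases on either side.
Hist1h1c: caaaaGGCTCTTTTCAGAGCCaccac
Hist1h4d: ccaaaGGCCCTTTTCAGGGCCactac
Hist1h2bb: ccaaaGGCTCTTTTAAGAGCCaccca
Hist1h4b: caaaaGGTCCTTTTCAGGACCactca

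LSM10 and LSM11 bind the U7 snRNA, which is shown because its Sm-like site is what sets their particle apart from the spliceosomal ones. The gene Rnu7 lies at chr6:124741225-124741286 on the minus strand of GRCm38, and its annotated transcript has 62 bases. The Sm-like site, bases 21 to 31, is in capitals. Rnu7 has 0 counts over all 14 libraries, so its level is not described here.
Rnu7: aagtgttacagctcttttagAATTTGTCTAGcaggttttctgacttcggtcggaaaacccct

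Library totals ran from 2441639 to 3570192 counts in 4sU and from 5724179 to 7369651 in total RNA. Levels are given as CPM, the count of a gene relative to its library total, scaled by the trimmed mean of M values (TMM), and a count of 3 corresponds to between 0.407 and 1.23 unscaled CPM across the libraries. Ddx6, the targeted gene, lay between 335 and 393 CPM in the total RNA of wild type, between 57.5 and 68.1 CPM in clone 1 and between 21.6 and 23.2 CPM in clone 2. In nascent RNA it lay between 244 and 272 CPM in wild type and between 146 and 232 CPM in the Ddx6 KO cultures. The 8 ESC markers summed to between 4404 and 5926 CPM in every library, and 3 of 6 fibroblast markers (Col1a2, Col3a1 and Postn) had under 3 counts in every library. All 6 summed to between 8.43 and 13.7 CPM in nascent RNA, and in total RNA to between 12.3 and 15.97 CPM in wild type and between 15.8 and 17.7 CPM in Ddx6 KO. The 5 markers of primitive endoderm summed to between 8.07 and 16.9 CPM in every library. The 4 markers of epiblast-like cells summed to between 141 and 154 CPM in the total RNA of wild type and between 80.4 and 91.7 CPM in that of Ddx6 KO, and to 50.2 to 60.7 and 25.7 to 30.2 CPM in nascent RNA, and Fgf5 among them had under 3 counts in every library. The part of these markers in the results was not tested. The labels do not say whether the cultures of a group were independent, so p values measure the spread between these cultures, which may be technical. This floor covers counting error only. In bulk RNA, fewer cells of a kind and less RNA per cell cannot be told apart.

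In wild-type total RNA, levels per kb of the deposited exon length spanned a wide range. Cpsf3 was highest at 66.8 ± 2.59 CPM per kb (SD, n = 3), followed by Slbp at 63.2 ± 1.06, Sympk at 58.1 ± 1.32 and Ncbp1 at 53.3 ± 1.06 CPM per kb. Casp8ap2 had 36.3 ± 1.63, Npat 26.7 ± 0.896, Eri1 26.3 ± 0.394 and Lsm10 19.01 ± 1.83 CPM per kb. Zfp473, with 7.67 ± 0.509 CPM per kb, and Lsm11, with 3.52 ± 0.535 CPM per kb, were lowest. Of the neighbours in this order, Npat and Eri1 had overlapping cultures, and the others did not overlap.

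The order was different in nascent RNA of wild type. Slbp stood far above the others at 115 ± 6.21 CPM per kb (SD, n = 3). Eri1 at 31.9 ± 2.28, Casp8ap2 at 26.2 ± 4.16 and Npat at 22.1 ± 2.36 CPM per kb came next, and neighbours among these overlapped. Ncbp1 at 18.96 ± 1.08 and Cpsf3 at 17.3 ± 0.506 CPM per kb also overlapped. Below them were Sympk at 14.1 ± 0.992, Lsm10 at 11.3 ± 0.926, Zfp473 at 7.77 ± 0.530 and Lsm11 at 2.53 ± 0.369 CPM per kb, with no overlap between neighbours. Cpsf3, first in total RNA, was sixth in nascent RNA.

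**Figure D1:**
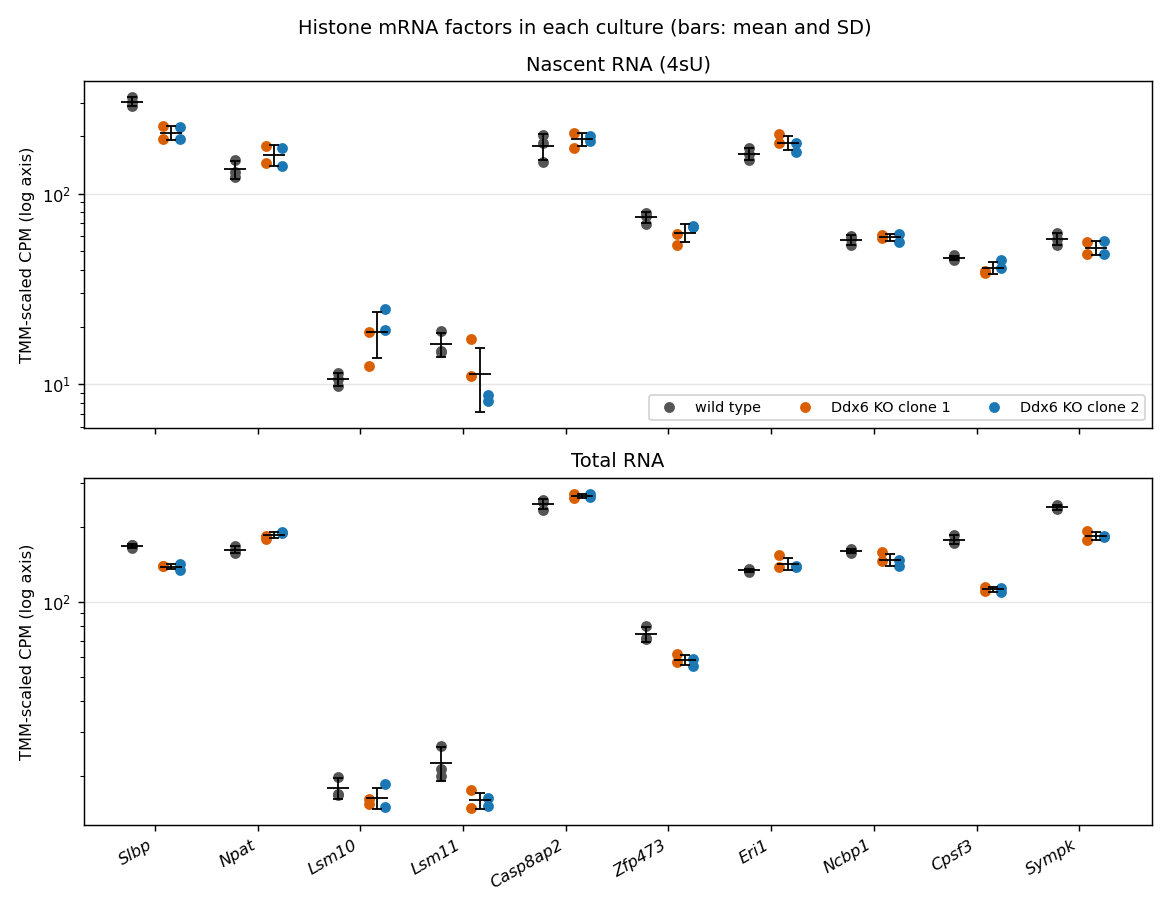
TMM-scaled CPM on a log axis for the 10 genes in each culture, with nascent RNA above and total RNA below. Points are cultures, and bars are the mean and SD of 3 wild-type and 4 Ddx6 KO cultures. In total RNA all 4 Ddx6 KO cultures sit below the 3 wild-type cultures for Slbp, Lsm11, Zfp473, Cpsf3 and Sympk.

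To ask how the factors responded to loss of DDX6, Ddx6 KO was compared with wild type in nascent RNA, in total RNA and in the ratio of total to nascent RNA, which serves as a relative measure of mRNA stability. Each gene was fitted with the quasi-likelihood test of edgeR, and a gene is called changed at an adjusted p below 0.05. The cultures of both clones were taken as replicates of Ddx6 KO, so p values do not measure the spread between knockout lines. In nascent RNA, 3 of the 10 genes rose (Npat, Lsm10 and Eri1) and 3 fell (Slbp, Lsm11 and Zfp473). In total RNA, 1 rose (Npat) and 5 fell (Slbp, Lsm11, Zfp473, Cpsf3 and Sympk). In the ratio, 1 rose (Slbp) and 2 fell (Lsm10 and Cpsf3).

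These counts stand against a background of many changed genes. Of the 14518 genes tested, 20.6% rose and 21.0% fell in nascent RNA, 19.5% rose and 31.0% fell in total RNA, and 3.79% rose and 8.58% fell in the ratio. A stricter rule that also asks for an absolute log2 fold change above 1 was met by 10.9%, 10.1% and 1.08% of genes in nascent RNA, total RNA and the ratio, and by 0 of the 10 in any of them. The cultures of the genotypes did not overlap for 41.7% of genes in nascent RNA, 52.4% in total RNA and 22.9% in the ratio, beside 3, 8 and 4 of the 10. The median log2 fold change of the 10 was -0.05 in nascent RNA, -0.20 in total RNA and -0.09 in the ratio. Over all tested genes the medians were 0.00094, -0.10 and -0.09.

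How the libraries were scaled moved these splits. Scaling by library size only raised the median of all genes by about the size of the smaller changes, to 0.21 in nascent RNA and 0.06 in total RNA. The members then split into 5 risen and 1 fallen in nascent RNA and 3 risen and 4 fallen in total RNA. With TMM applied within each assay, 3 rose and 5 fell in total RNA. In the ratio, scaling by library size only gave 0 risen and 2 fallen. The directions below hold relative to the bulk of genes as TMM sets it, and every called change among the 10 kept its sign under both other scalings.

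**Figure D2:**
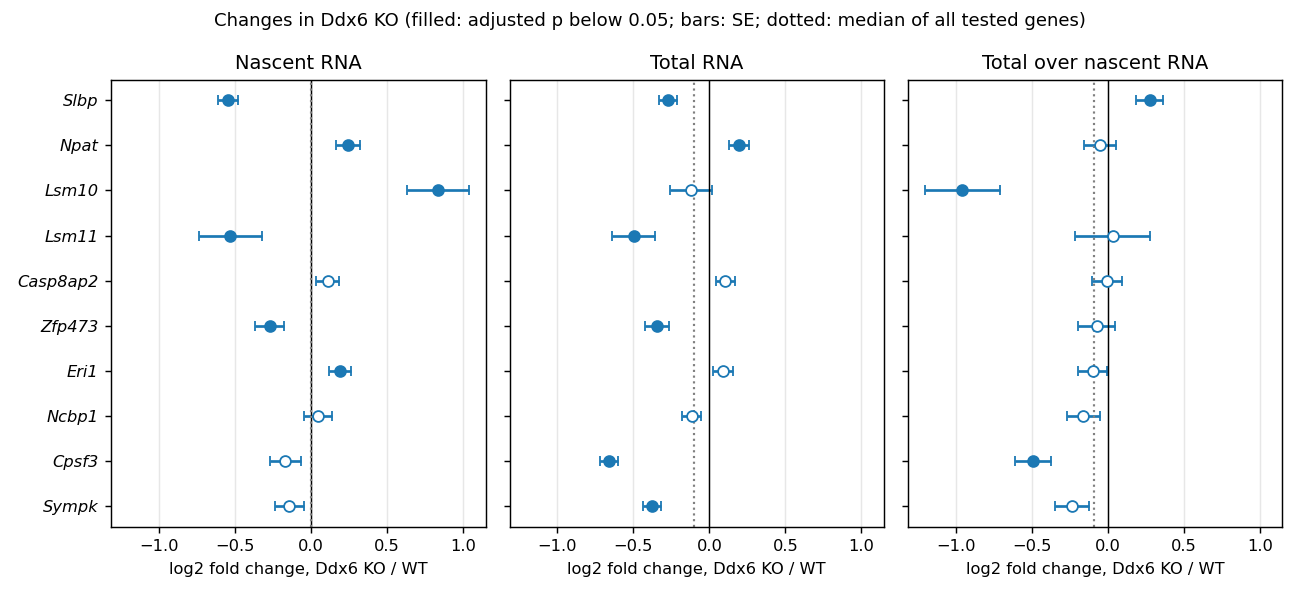
Log2 fold change of each gene in Ddx6 KO over wild type, in nascent RNA, total RNA and total over nascent RNA. Points are estimates of edgeR and bars their SE, filled where the adjusted p was below 0.05, and the dotted line is the median of all 14518 tested genes. Lsm10 shows the highest value in nascent RNA (0.84) and the lowest in the ratio (-0.96).

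The stretches before the starts of Slbp, Lsm10 and Npat are shown because Slbp had the largest fall and Lsm10 the largest rise in nascent RNA, and Npat the rise seen in both kinds of RNA. Promoters of 9 of the 10 genes, all but Eri1, were matched by symbol in a RefSeq table for GRCm38.p6 that gives 300 bases around each start. They were searched on both strands for the CCAAT box (CCAAT) and for E2F sites (TTTGGCGC, TTTCGCGC, TTTCCCGC or TTTGCCGC). A CCAAT box was found in 5 of the 9 (Slbp, Npat, Lsm10, Casp8ap2 and Zfp473) and in 37.4% of all 32851 promoters. An E2F site was found in 1 of the 9, Casp8ap2, and in 2.26% of all promoters. A gene was counted if any of its listed promoters held the motif, while the shares of all are per promoter. Zfp473 had several promoters listed, and not all of them held a CCAAT box. The 250 bases before the RefSeq start are printed 5′ to 3′ on the strand of the gene, with CCAAT boxes of either strand in capitals. Those of Slbp are chr5:33652575-33652824 (minus strand), of Lsm10 chr4:126096403-126096652 (plus strand) and of Npat chr9:53536797-53537046 (plus strand), and they hold 3, 1 and 2 CCAAT boxes. For Lsm10 the last of these bases lie inside the gene as Gencode places it, from chr4:126096623.
Slbp: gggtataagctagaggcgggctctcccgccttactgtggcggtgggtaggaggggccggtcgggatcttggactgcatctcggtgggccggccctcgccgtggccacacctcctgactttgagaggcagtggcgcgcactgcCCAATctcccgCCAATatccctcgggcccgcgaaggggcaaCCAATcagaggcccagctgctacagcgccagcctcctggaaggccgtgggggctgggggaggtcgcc
Lsm10: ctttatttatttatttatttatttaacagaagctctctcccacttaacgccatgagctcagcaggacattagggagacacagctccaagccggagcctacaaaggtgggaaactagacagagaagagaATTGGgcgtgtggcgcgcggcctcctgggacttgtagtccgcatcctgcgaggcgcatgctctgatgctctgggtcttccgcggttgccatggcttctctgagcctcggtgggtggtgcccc
Npat: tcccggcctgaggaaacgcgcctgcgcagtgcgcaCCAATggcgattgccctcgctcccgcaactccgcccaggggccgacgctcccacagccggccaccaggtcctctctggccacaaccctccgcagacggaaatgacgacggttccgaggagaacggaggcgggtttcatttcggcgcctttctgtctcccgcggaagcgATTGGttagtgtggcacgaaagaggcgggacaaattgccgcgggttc

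Slbp (ENSMUSG00000004642, chr5:33634952-33652574, minus strand), which encodes the protein that binds the stem-loop shown above, fell in nascent RNA. Its wild-type 4sU libraries had 301, 290 and 322 CPM, while the Ddx6 KO libraries had 193 and 225 CPM in clone 1 and 223 and 194 CPM in clone 2. All Ddx6 KO cultures lay below all wild-type cultures. The log2 fold change was -0.55 ± 0.064 (SE), with an adjusted p of 1.8e-10 in edgeR, and the change was called in all 18 alternative analyses of nascent RNA, where it lay between -0.59 and -0.34.

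In total RNA, Slbp was nearly level among replicates, with 164, 168 and 170 CPM in wild type, 139 and 139 CPM in clone 1 and 142 and 135 CPM in clone 2. Again the genotypes did not overlap. The fall was nearer to 0 than in nascent RNA, with a log2 change of -0.27 ± 0.061 (SE, edgeR adjusted p = 0.000166). It was called in 15 of 16 alternatives but was -0.12 (adjusted p = 0.112) when only library size was used for scaling.

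The ratio of total to nascent RNA of Slbp rose by 0.27 ± 0.089 in log2 (SE, edgeR adjusted p = 0.0307). In single cultures the log2 ratio was -0.87, -0.78 and -0.92 in wild type, and the Ddx6 KO cultures ran from -0.70 to -0.47, with no overlap. It was positive in all 19 alternatives, between 0.23 and 0.36, but passed the threshold in only 10. Leaving out wild-type replicate 1, 2 or 3, clone 1 replicate 1 or clone 2 replicate 2 gave adjusted p values of 0.0872, 0.053, 0.11, 0.0918 and 0.0541, and over all alternatives the adjusted p ranged from 0.00283 to 0.11.

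Of the genes of the histone locus body, Npat rose and Casp8ap2 did not pass the test. Npat (ENSMUSG00000033054, chr9:53537047-53574342, plus strand), which encodes a cyclin E-CDK2 substrate that activates histone transcription, had 130, 122 and 150 CPM in the 4sU libraries of wild type, 146 and 179 CPM in clone 1 and 175 and 140 CPM in clone 2. The genotypes overlapped in nascent RNA. The rise of 0.25 ± 0.079 (log2, SE, edgeR adjusted p = 0.00947) lost its call without wild-type replicate 1 (adjusted p = 0.0529), wild-type replicate 2 (0.132) or clone 1 replicate 2 (0.0593), and with the single-end run alone (0.0665), within a range of 2.78e-06 to 0.132 over the alternatives.

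In total RNA, Npat had 160, 157 and 168 CPM in wild type, 179 and 184 CPM in clone 1 and 188 and 190 CPM in clone 2, with every Ddx6 KO culture above every wild-type culture. The rise was 0.20 ± 0.066 in log2 (SE, edgeR adjusted p = 0.0114). This call was lost in 1 of 16 alternatives, without wild-type replicate 2 (adjusted p = 0.0626, in a range from 9.8e-06 to 0.0626). The ratio changed by -0.05 ± 0.103, with a 95% interval from -0.25 to 0.15.

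Casp8ap2 (ENSMUSG00000028282, chr4:32615451-32653265, plus strand), which encodes FLASH, a partner of LSM11 in the U7 particle, did not pass the test. Its 4sU libraries averaged 178 ± 28.3 CPM in wild type (SD, n = 3) against 193 ± 14.9 CPM in Ddx6 KO (SD, n = 4), a log2 fold change of 0.11 with an interval from -0.04 to 0.26. In total RNA the means were 247 ± 11.1 CPM (SD, n = 3) and 266 ± 5.24 CPM (SD, n = 4), and although the cultures did not overlap, the log2 fold change of 0.10 ± 0.063 (SE) had an adjusted p of 0.168 in edgeR. It was called in 4 of 16 alternatives in total RNA, among them both other scalings.

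The genes of the U7 particle went in different directions. Lsm10 (ENSMUSG00000050188, chr4:126096623-126098584, plus strand), which encodes an Sm-like protein of the U7 ring, had 11.5, 10.6 and 9.77 CPM in the 4sU libraries of wild type, 18.8 and 12.5 CPM in clone 1 and 24.8 and 19.3 CPM in clone 2. Every Ddx6 KO culture was above every wild-type culture, and clone 1 replicate 2 was nearest to wild type. These levels rest on 26 to 29 counts per library in wild type and 39 to 82 in Ddx6 KO. The log2 fold change was 0.84 ± 0.202 (SE, edgeR adjusted p = 0.000564), and the rise was called in all 18 alternatives, but its size moved with them. It was 0.58 with clone 1 alone and 1.06 with clone 2 alone, 0.65 with the single-end run and 1.137 with the re-sequencing run, and 1.04 with library size only, so that 3 of these passed an absolute log2 fold change of 1.

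Total RNA of Lsm10 did not follow. It had 19.9, 16.8 and 17.1 CPM in wild type, 15.5 and 16.3 CPM in clone 1 and 18.6 and 15.1 CPM in clone 2, and the genotypes overlapped. The difference of -0.12 in log2 had an interval from -0.40 to 0.15. Its total over nascent ratio fell by 0.96 ± 0.247 in log2 (SE, edgeR adjusted p = 0.00587), the largest change in the ratio among the 10. The log2 ratio was 0.76, 0.64 and 0.77 in wild type, -0.27 and 0.37 in clone 1 and -0.41 and -0.34 in clone 2, without overlap. The fall was called in 17 of 19 alternatives, and missed the threshold with the single-end run alone (-0.76, adjusted p = 0.0781) and with clone 1 alone (-0.73, adjusted p = 0.104), in a range from 0.00176 to 0.104.

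Lsm11 (ENSMUSG00000044847, chr11:45928269-45944935, minus strand), the partner of Lsm10 in the ring, fell in total RNA. It had 21.4, 20.1 and 26.6 CPM in wild type, 15.0 and 17.6 CPM in clone 1 and 16.3 and 15.3 CPM in clone 2. No culture of Ddx6 KO reached the wild-type range. Its log2 fold change was -0.50 ± 0.140 (SE, edgeR adjusted p = 0.00228), and the fall lost its call only without wild-type replicate 3, the highest culture (-0.36, adjusted p = 0.0588, in a range from 0.00111 to 0.0588).

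In nascent RNA, Lsm11 had 19.05, 15.0 and 14.8 CPM in wild type, 11.1 and 17.3 CPM in clone 1 and 8.77 and 8.18 CPM in clone 2. Clone 1 reached into the wild-type range and clone 2 did not. These libraries held 29 to 54 counts of Lsm11. The log2 fold change of -0.53 ± 0.208 (SE, edgeR adjusted p = 0.0348) was called in 7 of 18 alternatives. The call was lost without wild-type replicate 1 (adjusted p = 0.172), wild-type replicate 2 (0.0502), clone 1 replicate 1 (0.0604), clone 2 replicate 1 (0.127) or clone 2 replicate 2 (0.156), and the values ran from -0.92 with clone 2 alone to -0.19 with clone 1 alone (adjusted p from 0.00191 to 0.545).

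Zfp473 (ENSMUSG00000048012, chr7:44731480-44751050, minus strand), which encodes a zinc finger protein bound to the U7 particle, fell in both kinds of RNA. Total RNA had 71.6, 71.3 and 80.0 CPM in wild type, 61.9 and 57.7 CPM in clone 1 and 59.3 and 55.3 CPM in clone 2. The genotypes did not overlap, the log2 fold change was -0.35 ± 0.078 (SE, edgeR adjusted p = 0.000169), and all 16 alternatives called it. In nascent RNA it had 69.6, 79.5 and 76.7 CPM in wild type against 53.5 to 67.9 CPM in Ddx6 KO, and the fall of -0.27 ± 0.095 (log2, SE, edgeR adjusted p = 0.0171) was called in 11 of 18 alternatives. It was lost without wild-type replicate 2 (adjusted p = 0.0945) or clone 1 replicate 1 (0.0957), and was -0.07 (adjusted p = 0.581) with scaling by library size only, in a range from 0.00505 to 0.628.

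The subunits of the cleavage complex fell in total RNA. Cpsf3 (ENSMUSG00000054309, chr12:21285391-21315056, plus strand), the endonuclease, with Gm25821 annotated inside it on the same strand, had 175, 185 and 172 CPM in wild type, 110 and 114 CPM in clone 1 and 114 and 110 CPM in clone 2. The Ddx6 KO cultures were tightly grouped and far below wild type. The log2 fold change of -0.66 ± 0.061 (SE, edgeR adjusted p = 4.85e-14) was the largest of the 10 in total RNA, and all 16 alternatives called it, between -0.69 and -0.51. Its level dropped by 36.8%.

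In nascent RNA Cpsf3 was closer between genotypes. Wild type had 44.7, 45.8 and 47.4 CPM and the Ddx6 KO cultures ran from 38.5 to 44.9 CPM, where 1 culture, clone 2 replicate 2, lay inside the wild-type range. Its log2 fold change of -0.17 ± 0.102 (SE, edgeR adjusted p = 0.186) had an interval from -0.37 to 0.03. Its total over nascent ratio fell by 0.49 ± 0.118 in log2 (SE, edgeR adjusted p = 0.0027), from 1.95, 2.00 and 1.85 in wild type to between 1.28 and 1.56 in Ddx6 KO. It was called in 18 of 19 alternatives and was -0.40 (adjusted p = 0.0728, in a range from 0.000717 to 0.0728) with clone 1 alone.

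Sympk (ENSMUSG00000023118, chr7:19024377-19054618, plus strand), the scaffold of the same complex, had 245, 237 and 235 CPM in the total RNA of wild type, 178 and 192 CPM in clone 1 and 182 and 184 CPM in clone 2. These did not overlap, and the log2 fold change of -0.38 ± 0.058 (SE, edgeR adjusted p = 1.64e-07) was called in all 16 alternatives. Nascent RNA averaged 57.9 ± 4.08 CPM in wild type (SD, n = 3) against 52.1 ± 4.46 CPM in Ddx6 KO (SD, n = 4). Both runs of the 4sU libraries gave opposite signs for Sympk: the single-end run alone gave a log2 change of -0.35 ± 0.116 (SE, edgeR adjusted p = 0.0144) and the re-sequencing run alone 0.20 ± 0.143 (SE, edgeR adjusted p = 0.324). With both runs summed it was -0.14 (adjusted p = 0.23), and over the alternatives the adjusted p ranged from 0.0144 to 0.616. The ratio, -0.23 ± 0.110 (SE, edgeR adjusted p = 0.168), likewise depended on the run, at -0.02 (adjusted p = 0.957) with the first and -0.58 (adjusted p = 0.00885) with the second, which are the ends of its range.

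Eri1 (ENSMUSG00000031527, chr8:35465253-35496196, minus strand), the exonuclease of the stem-loop end, rose in nascent RNA, from 161, 151 and 174 CPM in wild type to between 165 and 204 CPM in Ddx6 KO, with overlap. A log2 fold change of 0.19 ± 0.072 (SE, edgeR adjusted p = 0.0289) was called in 12 of 18 alternatives. The call was lost without wild-type replicate 1 (adjusted p = 0.0792), wild-type replicate 2 (0.22) or clone 1 replicate 2 (0.121), with a range from 5.95e-06 to 0.268. In total RNA it had 131, 135 and 134 CPM in wild type, 137 and 154 CPM in clone 1 and 139 and 138 CPM in clone 2, which did not overlap, but the log2 fold change of 0.09 ± 0.065 (SE) had an adjusted p of 0.257 in edgeR. It was called in 3 of 16 alternatives, with TMM within each assay (0.18, adjusted p = 0.0165), library size only (0.25, adjusted p = 0.00115) and no filter beyond 1 count (0.19, adjusted p = 0.0207), in a range from 0.00115 to 0.508. The ratio of Eri1 changed by -0.10, with a 95% interval from -0.29 to 0.09.

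Ncbp1 (ENSMUSG00000028330, chr4:46138613-46172403, plus strand), the cap-binding subunit, did not pass the test in any comparison, and among the alternatives it was called in 1, nascent RNA scaled by library size only (0.25, adjusted p = 0.0215). It had 57.1 ± 3.26 CPM (SD, n = 3) and 59.0 ± 2.44 CPM (SD, n = 4) in the 4sU libraries of wild type and Ddx6 KO, a log2 fold change of 0.04 with an interval from -0.14 to 0.22. In total RNA it had 160 ± 3.18 CPM (SD, n = 3) and 148 ± 8.03 CPM (SD, n = 4), a log2 change of -0.12 with an interval from -0.24 to 0.00057 (adjusted p = 0.0995, edgeR). The ratio lay lower in all 4 Ddx6 KO cultures than in the 3 of wild type, at -0.16 ± 0.110 (log2, SE, edgeR adjusted p = 0.39).

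Within wild-type cells, the 10 genes differed far more in their ratio of total to nascent RNA than any of them differed between genotypes. The log2 ratio was highest for Sympk at 2.04 ± 0.080 (SD, n = 3), Cpsf3 at 1.94 ± 0.078 and Ncbp1 at 1.48 ± 0.101. These lay at the 97.6th, 96.8th and 90.3rd percentile of the tested genes, whose median was 0.07. Lsm10 had 0.72 ± 0.077, Casp8ap2 0.48 ± 0.182, Lsm11 0.46 ± 0.333 and Npat 0.27 ± 0.103, between the 70.6th and the 55.8th percentile. Zfp473 at -0.02 ± 0.120 and Eri1 at -0.27 ± 0.108 were at the 47.4th and 40.8th percentile. Slbp was lowest, at -0.86 ± 0.071 and the 28.7th percentile.

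In Ddx6 KO the order of the extremes was kept: Sympk had 1.81 ± 0.155 (SD, n = 4), Cpsf3 1.45 ± 0.117, Ncbp1 1.32 ± 0.052 and Slbp -0.59 ± 0.106. Lsm10 moved from the 70.6th percentile to the 44.5th, to -0.16 ± 0.357. Slbp moved from the 28.7th to the 33.0th percentile. The ratio depends on how the 4sU and total libraries are scaled to each other and on how well each RNA is labelled and captured. It gives no half-life, and it orders genes by stability only as far as labelling and capture are alike among RNAs.

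**Figure D3:**
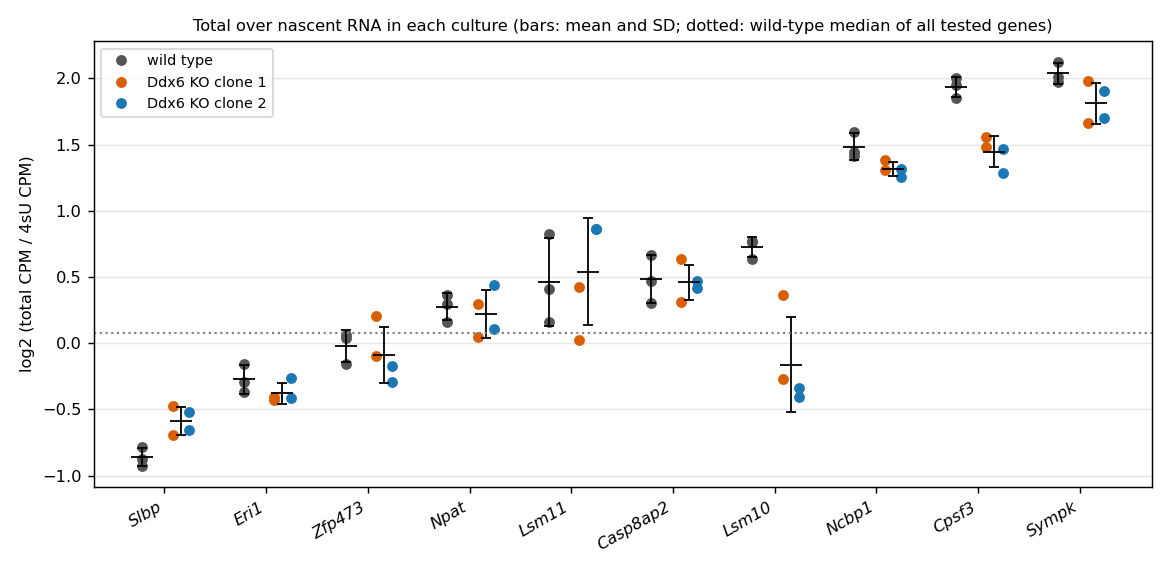
Log2 of total over 4sU TMM-scaled CPM, with 0.5 CPM added to each, in every culture, with genes ordered by their wild-type mean. Points are cultures, bars are the mean and SD of 3 wild-type and 4 Ddx6 KO cultures, and the dotted line is the wild-type median of all tested genes (0.07). The Ddx6 KO points of Slbp lie above the wild-type points, and those of Lsm10, Ncbp1 and Cpsf3 lie below them.

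Each knockout line is a single clone, so both were also compared with each other in a fit with clones as separate groups. In nascent RNA 0 of the 10 genes differed at an adjusted p below 0.05 in edgeR, where 0.172% of all genes did, and 2 differed at an unadjusted p below 0.05. These were Lsm11, lower in clone 2 by 0.73 ± 0.265 in log2 (SE, edgeR adjusted p = 0.487), and Lsm10, higher in clone 2 by 0.47 ± 0.211 (SE, edgeR adjusted p = 0.707). In total RNA 0 of the 10 differed, with 0.296% of all genes called, and 0 did so at an unadjusted p below 0.05. The largest difference in total RNA was 0.09 on the log2 scale, and limma-voom also called 0 in either assay.

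Other genes linked to the pathway were described with a list of 41, all of which were tested. The list was written for this report, and its cleavage factors include genes of the polyadenylation machinery. Whether each of the 41 acts on histone mRNAs was not checked. In nascent RNA 7 rose and 11 fell, where 20.6% of all genes rose and 21.0% fell. In total RNA 5 rose and 19 fell (19.5% and 31.0% of all genes), and in the ratio 3 rose and 2 fell (3.79% and 8.58% of all genes), with median log2 fold changes of -0.07, -0.15 and -0.09 beside 0.00094, -0.10 and -0.09 for all genes. Scaling by library size only turned these splits to 18 risen and 3 fallen in nascent RNA and 12 risen and 6 fallen in total RNA, and TMM within each assay gave 9 risen and 11 fallen in total RNA. By role, in total RNA 0 rose and 5 fell of 9 other cleavage factors, 0 rose and 4 fell of 5 Sm proteins, 2 rose and 1 fell of 8 genes of transcription, 1 rose and 1 fell of 3 of cap binding, and 2 rose and 8 fell of 16 of translation and decay, where 31.0% of all genes fell. With TMM within each assay 1 cleavage factor rose and 3 fell, and 1 Sm protein rose and 2 fell, and with library size only these were 2 and 3, and 1 and 2.

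Among cleavage factors, Clp1, an RNA kinase of the polyadenylation machinery, fell in nascent RNA from a wild-type mean of 129 ± 3.08 CPM (SD, n = 3) to 82.9 ± 6.75 CPM (SD, n = 4), a log2 change of -0.64 ± 0.080 (SE, edgeR adjusted p = 1.31e-09). The ratio of total to nascent RNA of Clp1 rose by 0.42 ± 0.109 (log2, SE, edgeR adjusted p = 0.00599). Cpsf1, the large CPSF subunit, fell in total RNA from 190 ± 12.7 to 133 ± 9.73 CPM, a log2 change of -0.51 ± 0.085 (SE, edgeR adjusted p = 1.26e-05). The ratio of Cpsf1 differed by -0.42 and did not pass the test (adjusted p = 0.0875).

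Of the Sm proteins that complete the U7 ring, Snrpb fell in nascent RNA from a wild-type mean of 180 ± 8.58 CPM (SD, n = 3) to 123 ± 4.79 CPM (SD, n = 4), with a log2 change of -0.55 ± 0.069 (SE, edgeR adjusted p = 1.4e-09). Its total RNA changed less, by -0.21 ± 0.058 (log2, SE, edgeR adjusted p = 0.00194). The ratio of Snrpb rose by 0.34 ± 0.090 (log2, SE, edgeR adjusted p = 0.00717). Snrpe fell in total RNA from 82.9 ± 2.62 to 55.97 ± 4.998 CPM, with a log2 change of -0.56 ± 0.080 (SE, edgeR adjusted p = 2.75e-08). Ccne2, a cyclin E that activates CDK2, rose in total RNA from 61.1 ± 3.23 to 94.4 ± 6.24 CPM, by 0.63 ± 0.081 in log2 (SE, edgeR adjusted p = 4.94e-09). Its nascent RNA did not pass the test (0.10, adjusted p = 0.304), and its ratio rose by 0.52 ± 0.113 (SE, edgeR adjusted p = 0.00101).

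Among genes of decay, Lsm5, a subunit of the LSM1-7 ring, rose in nascent RNA by 0.56 ± 0.162 (log2, SE, edgeR adjusted p = 0.00405), from a wild-type mean of 18.9 ± 0.814 CPM (SD, n = 3) to 27.6 ± 3.17 CPM (SD, n = 4). Total RNA of Lsm5 had 7.18 ± 0.355 and 7.68 ± 1.21 CPM, a log2 fold change of 0.10 (adjusted p = 0.661), and its ratio differed by -0.46 ± 0.244 (log2, SE, edgeR adjusted p = 0.239), so neither passed the test. Dis3l2, an exonuclease that degrades uridylated RNA, had a ratio that changed by -0.51 ± 0.148 (log2, SE, edgeR adjusted p = 0.0153) in Ddx6 KO. Nascent RNA of Dis3l2 rose by 0.35 ± 0.121 (log2, SE, edgeR adjusted p = 0.0163). Its total RNA did not pass the test (-0.16, adjusted p = 0.117).

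The replication-dependent histone genes encode the RNAs on which the 10 factors act. These histone genes were taken by symbol, as the 65 protein-coding genes of the Hist1 to Hist4 clusters. Replication dependence was not checked for each. Of the 65, 57 were tested, and in nascent RNA 56 fell and 0 rose (21.0% and 20.6% of all genes). The median log2 fold change was -1.42 beside 0.00094 for all genes. In total RNA 44 fell and 2 rose (31.0% and 19.5% of all genes), with a median of -0.55 beside -0.10. In the ratio 48 rose and 0 fell (3.79% and 8.58% of all genes), with a median of 0.88 beside -0.09. Hist1h1c, a linker histone gene that carries the common stem-loop, had the smallest called rise in the ratio, at 0.40 ± 0.079 (log2, SE, edgeR adjusted p = 0.000278). Its level fell from a wild-type mean of 1160 ± 63.8 CPM (SD, n = 3) to 634 ± 57.1 CPM (SD, n = 4) in nascent RNA and from 980 ± 36.9 to 706 ± 23.9 CPM in total RNA. Hist1h2aa had the largest rise in the ratio, at 1.53 ± 0.218 (log2, SE, edgeR adjusted p = 8.75e-07), with 41.3 ± 9.99 and 22.7 ± 5.30 CPM in nascent RNA and 10.5 ± 1.01 and 16.4 ± 1.07 CPM in total RNA. The search above did not find the stem-loop in Hist1h2aa, whose libraries held 54 to 135 counts. Only uniquely mapped reads were counted, so histone genes with near-identical copies have uncertain levels.

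Histone mRNAs and SLBP protein are made in S phase. Of 14 genes of S phase (the MCM helicase, DNA replication and nucleotide synthesis), 9 fell and 1 rose in nascent RNA (21.0% and 20.6% of all genes). In total RNA 11 fell and 0 rose (31.0% and 19.5% of all genes). The median log2 fold changes were -0.40 and -0.47, beside 0.00094 and -0.10 for all genes. The gene that rose, Rrm1 (a subunit of ribonucleotide reductase), changed by 0.36 in nascent RNA (edgeR adjusted p = 2.12e-05) and by -0.04 in total RNA (adjusted p = 0.566), and is named after its values were seen. In the ratio 1 of the 14 rose and 3 fell (3.79% and 8.58% of all genes), with a median of -0.01 beside -0.09 for all genes. Under the 2 other scalings 54 to 56 histone genes and 7 to 9 S phase genes fell in nascent RNA, and 36 to 41 and 8 to 9 fell in total RNA. The part of S phase genes in the changes of Slbp and the histone genes was not tested.

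**Figure D4:**
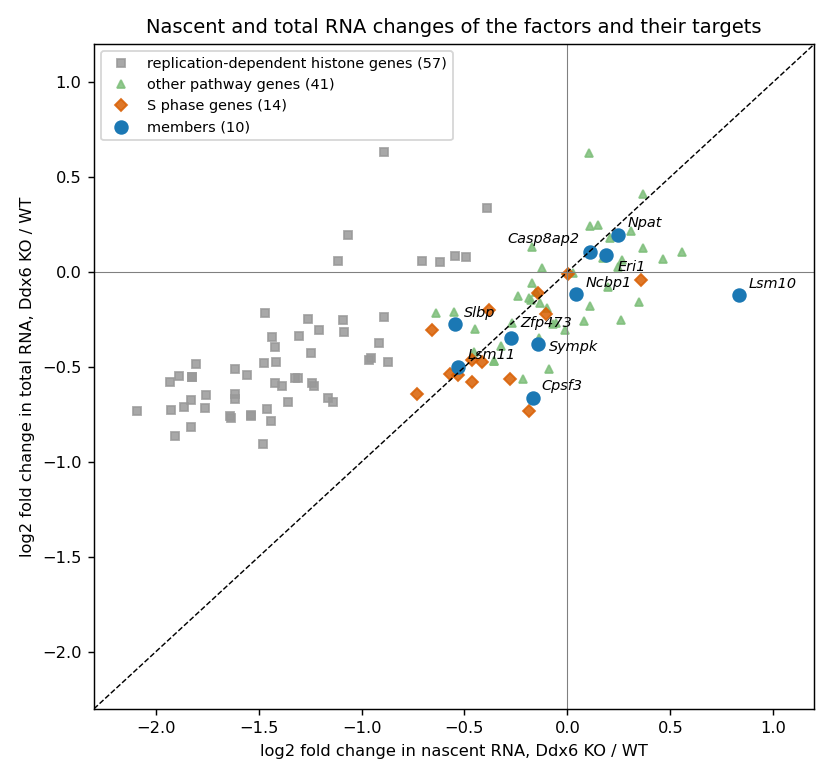
Log2 fold change in nascent RNA (horizontal) against that in total RNA (vertical), Ddx6 KO over wild type. Shown are the 10 factors (blue, named), 57 histone genes of the Hist1 to Hist4 clusters (labelled replication-dependent), 41 other pathway genes and 14 S phase genes. On the dashed line both changes are equal. Histone genes lie far to the left and above the line, with medians of -1.42 and -0.55, while Lsm10 and Cpsf3 lie below it.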

How the data were processed

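Nascent (4sU) and total RNA of 7 cultures of mouse ESCs were compared. Adapters were removed by the authors (Cutadapt 1.14), reads were aligned to mm10 (STAR 2.5.3a), and unique alignments were counted by strand over exons (featureCounts 1.5.3). The deposited values are raw counts per gene, and other deposited values, gene lengths in bases, were used for levels per kb. Read counts of the single-end run and fragment counts of the paired-end re-sequencing run of a 4sU library were summed. Spike-in entries (92) held 0 counts and were removed.

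The 14518 genes that reached 3 CPM in 3 or more libraries were scaled by TMM (factors 0.925 to 0.942 in wild type and 1.03 to 1.07 in Ddx6 KO) and fitted in edgeR 4.0.16 (quasi-likelihood, R 4.3.3) with genotype, assay and their interaction, which is the test of the ratio. P values were adjusted over all tested genes in each contrast (Benjamini-Hochberg). Printed CPM are TMM-scaled, and log2 ratios have 0.5 CPM added. Positions and symbols are from Gencode M21 (GRCm38). The code was tested on simulated data.

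The 10 genes and all gene lists were chosen with earlier results of these data known. Genes named for their changes beside the 10 are Ddx6, from the pathway list the 3 largest called changes in each contrast, and the highest and lowest called ratio change among histone genes. Rrm1 and the neighbours Atm, Tstd2, Itgb1bp1 and Foxa3 were added after values had been seen. Alternatives were DESeq2 1.42.0, limma-voom (limma 3.58.1), other scalings and filters, blocks, each run, each clone and each culture left out.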

Additional observations from a re-analysis of the deposited data

Results flagged for a closer look

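In groups of 4 cultures, a value stands apart when its gap to the nearest other, as a share of the range, is over Dixon's 95% critical value, which chance gives in about 1 in 20 groups. Of 30 groups checked, 2 did so, both for Eri1 in Ddx6 KO. In total RNA clone 1 replicate 2, at 154 CPM, lay above the other 3 cultures, which had 137 to 139 CPM, and the gap was 0.898 of the range. In the log2 ratio of total to nascent RNA clone 2 replicate 2, at -0.26, lay above the others at -0.43 to -0.41, with a gap of 0.865 of the range. Without clone 1 replicate 2 the rise of Eri1 in nascent RNA lost its call, as given above.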

How the results depend on the processing

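In nascent RNA 6 of the 10 factors were called, and the count was 3 with the re-sequencing run alone and 2 to 7 when single cultures were left out. In total RNA it was 6, and 5 to 6 without single cultures. In the ratio it was 3, and it was 1 with the single-end run alone, 0 with clone 1 alone, 2 with clone 2 alone and 2 to 3 without single cultures. An absolute log2 fold change above 1 left 0 in each comparison. With the replicate number as a block, which pairs nothing in the labels (correlations between same-numbered cultures -0.06 to 0.13), the counts were 4, 7 and 3, and with culture as a block over both RNAs (correlations 0.0038 to 0.12) the count for the ratio was 3. The count of other pathway genes called in the ratio, 5, became 11 with library size only and 3 with TMM within each assay. Alternatives for histone and S phase genes and for roles in the pathway were chosen after seeing the data.

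In 30 of 530 alternatives for single genes the sign changed, in each case from a value that was not called. By library size only these were Cpsf3 (0.037) and Sympk (0.063) in nascent RNA, Lsm10 (0.035) and Ncbp1 (0.039) in total RNA and Lsm11 in the ratio (-0.017). With the re-sequencing run alone they were Sympk in nascent RNA (0.20), and Lsm11 (-0.043) and Casp8ap2 (0.027) in the ratio, and with the single-end run Zfp473 in the ratio (0.019). The others in the ratio were Npat (0.0062), Casp8ap2 (0.051) by DESeq2, Npat (0.039), Casp8ap2 (0.084) and Zfp473 (0.016) by TMM within each assay, Casp8ap2 with both other filters (0.042 and 0.028), Lsm11 (-0.26), Casp8ap2 (0.020) and Zfp473 (0.089) with clone 1 alone, and Npat with clone 2 alone (0.0080). Without single cultures, Casp8ap2 ranged from -0.0074 to 0.21 and Ncbp1 from -0.00030 to 0.084 in nascent RNA, and in the ratio Npat from -0.12 to 0.016, Lsm11 from -0.12 to 0.25, Casp8ap2 from -0.095 to 0.075 and Zfp473 from -0.16 to 0.0026. The causes were not tested. Depth limits Lsm10 and Lsm11, with under 100 counts in each 4sU library.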

Other observations

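Neighbours of the factors were looked at after the values had been seen, as protein-coding genes on the opposite strand whose start lies within 1000 bases of that of a factor. Npat and Atm start 307 bases apart, so the Npat stretch printed above lies between them. Atm, which encodes a kinase of the DNA damage response, rose in nascent RNA by 0.26 ± 0.091 (log2, SE; adjusted p = 0.0174, edgeR), close to the 0.25 of Npat, and was at 0.10 (adjusted p = 0.179) in total RNA. Ncbp1 and Tstd2 start 81 bases apart, and Tstd2 rose in nascent RNA by 0.52 ± 0.121 (log2, SE; adjusted p = 0.000342, edgeR) and in total RNA by 0.35 ± 0.086 (adjusted p = 0.000455), and Ncbp1 was at 0.04 (adjusted p = 0.744) and -0.12 (adjusted p = 0.0995). Itgb1bp1 and Cpsf3 overlap on opposite strands, and their Gencode starts lie 893 bases apart. By RefSeq their starts are much closer, as the 250 bases before Cpsf3 end at chr12:21286296 and Itgb1bp1 starts at chr12:21286284 in Gencode. Log2 fold changes of Itgb1bp1 were 0.01 in nascent and 0.17 in total RNA (adjusted p = 0.972 and 0.242, edgeR), beside the fall of 0.66 of Cpsf3 in total RNA. Foxa3, 839 bases from the start of Sympk, rose in total RNA by 0.80 ± 0.292 (log2, SE; adjusted p = 0.0192, edgeR) on 14 to 35 counts per library, where Sympk fell. Whether neighbours differ in their changes was not tested.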
